A study of Mus musculus with 8 samples.

Results

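The comparison described here is the age difference in the kidney cortex of SAMR1 mice, 50 weeks minus 10 weeks. SAMR1 is the senescence-resistant inbred strain that serves as the control for the senescence-accelerated strain SAMP1. The members were the 4 arrays whose titles name SAMR1, out of 8 arrays in all: 2 male mice aged 10 weeks (replicates 1 and 4) and 2 male mice aged 50 weeks (replicates 6 and 12), with 1 array per mouse. The other 4 arrays held cortex of male SAMP1 mice of the same ages, 2 per age. No group carried a named transgene, deletion or treatment, and no age between 10 and 50 weeks was sampled. Total RNA came from 10 mg of cortex, and 50 ng of it was labelled with Cy3 for a 1-colour Agilent array of 60-base probes. A level is the log2 of a probe's signal over its array's 75th percentile. Differences are 50 weeks minus 10 weeks on that log2 scale with limma's standard error, and adjusted p-values as limma's values with Benjamini-Hochberg adjustment over all genes tested. A gene passed where its adjusted p was under 0.05.

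The kidney cortex holds the glomeruli, which filter blood, and most of the proximal tubule, which takes back the filtered solutes. In the ageing kidney of laboratory mice, plasma cells and other lymphocytes are known to gather around vessels and the renal pelvis. A plasma cell makes antibody from a heavy chain and a kappa or lambda light chain, and each chain joins a rearranged variable segment to a constant segment. The array has separate probes for many of these segments, so its antibody signal is spread over many rows.

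Between 61.4% and 64.4% of spots stood well above background on the SAMR1 arrays, and none was saturated. Across genes, which are not independent replicates, the 2 younger arrays correlated at 0.995 and the 2 older ones at 0.994, while pairs of different age lay between 0.983 and 0.985. Markers of the labelled tissue were present: the median level of 15 proximal tubule markers was 6.22 and 5.90 at 10 weeks and 5.99 and 6.11 at 50 weeks. The median of 10 podocyte markers lay between -0.75 and -0.36 on the same arrays, and that of 3 measured adrenal markers between -3.40 and -2.91. All 8 arrays lay on 1 slide and had 1 scan time. The 10-week arrays filled slide columns 1 and 2 and the 50-week arrays columns 3 and 4, so an effect of the slide column and one of age cannot be told apart. Each slide row held 1 SAMR1 array of either age, and a fit with the row as a block pairs the ages within rows.

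Haemoglobin messenger RNA separated the SAMR1 ages before any other gene was considered. The mean level of 5 haemoglobin genes was 5.11 and 5.58 in the mice aged 10 weeks and -0.81 and 1.15 in those aged 50 weeks. Hba-a1, an alpha globin gene, read 7.21 and 7.87 at 10 weeks and 1.17 and 3.15 at 50 weeks. Alas2, the first enzyme of haem synthesis in red cell precursors, read 0.03 and 0.71 at 10 weeks and -5.80 and -3.87 at 50 weeks. The groups did not overlap for any of the 6 genes, whose differences ran from -5.40 to -4.78. Both older mice lay below both younger mice in 22.9% of all genes. The adjusted p of these 6 genes was 0.12 to 0.13 and none passed. In SAMP1 the same mean was 1.25 and 3.64 at 10 weeks and 5.54 and 3.32 at 50 weeks, with differences of 1.81 to 2.11, so the sign was opposite in that strain. Ppbp, a platelet chemokine gene, was also lower in the older SAMR1 mice: it read -4.95 and -4.84 at 10 weeks and -7.72 and -7.75 at 50 weeks, not well above background at the older age, and was at least 1.45-fold lower (adjusted p = 0.0175). It lost the call without any 1 SAMR1 array and with the slide row as a block (adjusted p = 0.0519). The other 3 platelet markers did not pass, with Pf4 at -0.58, Itga2b at 0.57 and Gp1bb at 0.38, and the median of the 4 was -0.10. The neutrophil genes S100a8 and S100a9 had differences of -2.59 and -2.25 and did not pass (adjusted p = 0.253 and 0.274), while Ly6g, Mmp8 and Camp had positive ones of 0.11, 0.34 and 0.48 and the median of 6 neutrophil markers was 0.037. Within SAMR1 the amount of blood in the pieces and age cannot be told apart.

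**Figure D1:**
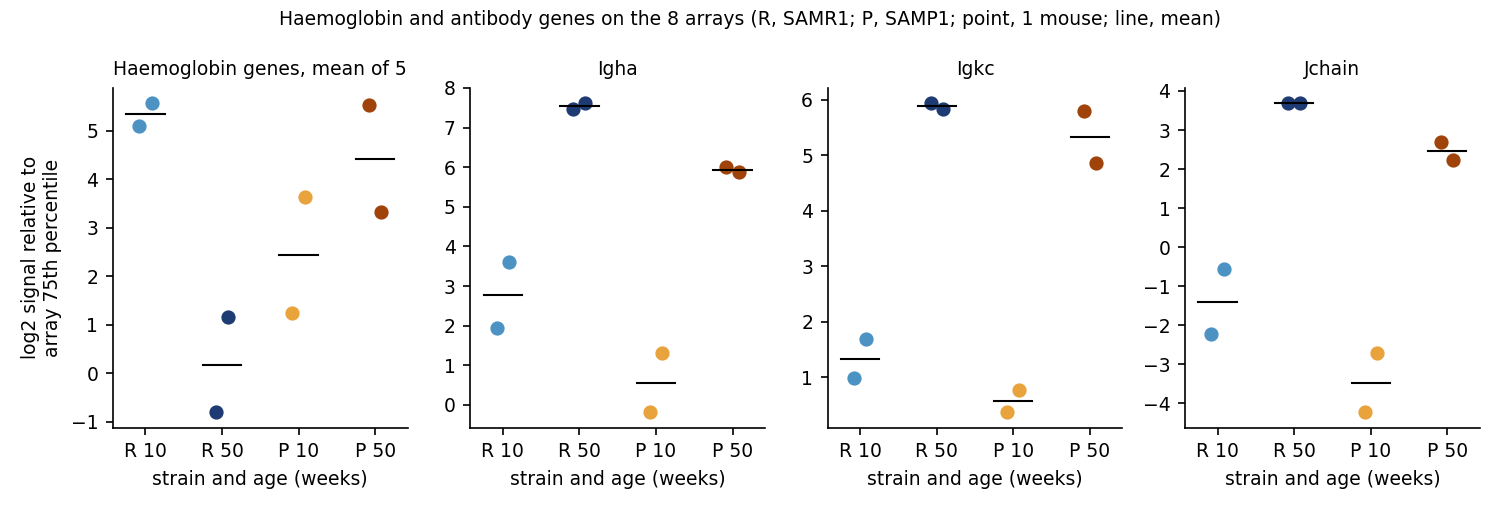
Level (log2 of signal over the 75th percentile, y axis) of the 5 haemoglobin genes (mean), Igha, Igkc and Jchain by strain and age on the 8 arrays; each point is 1 mouse, lines are group means, R is SAMR1 and P is SAMP1. Haemoglobin was lower at 50 weeks in SAMR1 (5.11 and 5.58 against -0.81 and 1.15) and the antibody genes were higher at 50 weeks in both strains.

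Of 22091 genes tested, 242 passed for age in SAMR1 (1.1%): 200 were higher at 50 weeks (0.905%) and 42 were lower (0.19%). The difference was at least 2-fold in 195 of them. At an unadjusted p under 0.05 there were 2798 genes (12.7%). Both older mice lay above both younger mice in 19.7% of genes and below them in 22.9%, and 46.9% of differences were positive. The 242 genes comprised 107 antibody segments as recognised below, 93 other genes that were higher and 42 that were lower. The 93 are not free of antibody genes: Igh-VJ558 (difference 5.22) was not recognised as a segment and counts among them. The median difference was 1.37 among the other higher genes and -1.04 among the lower ones, and 12 of the 42 lower genes were not well above background at 50 weeks. Each SAMR1 array carried weight: 91 or 110 genes passed without 10-week replicate 1 or 4, and 76 or 64 without 50-week replicate 6 or 12. With the slide row as a block 156 passed. With the haemoglobin level of each array as a covariate 13 genes passed, of which 11 were antibody segments, and all 242 kept their sign. The 242 were chosen for their difference on these same arrays, so the kept sign is no separate test.

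Antibody genes made up the largest group among the rises. The array carried 208 antibody segments, recognised by the gene descriptions in the files and grouped after values had been seen, and 141 were tested. In all 107 segments rose and 0 fell, which is 53.5% of the genes that rose. The tested segments are not all of them: 104 of the 141 entered the test only because they were well above background at 50 weeks, and such a segment had to be higher, so the count among them describes the filter too. Among 37 segments well above background on all 4 SAMR1 arrays, 23 rose under that stricter filter and 0 fell, where 0.292% of all genes so filtered rose, and the median difference was 3.4. With no filter, 196 of all 208 segments had a positive difference and 55 rose, against 0.262% of all genes without a filter. The segments with no passing call are not shown to be unchanged. Without 10-week replicate 1 or 4, 54 or 69 segments rose, and without 50-week replicate 6 or 12, 36 or 34 did.

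Kappa variable segments were the most numerous of those that rose. Of 94 kappa variable segments on the array 70 were tested, 55 rose, and the median difference over the 70 was 4.64. Since 54 of the 70 entered only through the 50-week arrays, these figures describe the filter too. Under the stricter filter 11 of 16 rose (median difference 3.81), and with no filter 26 of 94 rose (median difference 4.22). The median level of these 70 was -6.25 and -5.56 on the younger arrays and -1.18 and -1.04 on the older ones. Igkv12-44 read -7.10 and -6.41 at 10 weeks and -0.46 and 0.74 at 50 weeks, at least 54.8-fold higher (adjusted p = 0.00577). Igkv10-94 read -7.88 and -7.66 at 10 weeks and -1.24 and -1.04 at 50 weeks, at least 22.6-fold higher (adjusted p = 8.28e-05). Such a bound sets the older mean against the lowest signal well above background on the younger arrays, or the probe's own reading there where that is higher. Igkc, the one kappa constant segment, read 0.98 and 1.70 in the younger mice and 5.94 and 5.82 in the older mice (4.54 ± 0.357, 23.3-fold, adjusted p = 0.00413). It was well above background in the young mice as well, so kappa message was measurable at 10 weeks. The variable segments named singly were picked out after their values were seen.

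Heavy chains moved in the same direction. Of 96 heavy variable segments 57 were tested and 43 rose, with a median difference of 4.03 and a range of 0.39 to 5.46. Since 45 of the 57 entered only through the 50-week arrays, these figures describe the filter too. Under the stricter filter 7 of 12 rose (median difference 2.84), and with no filter 25 of 96 rose (median difference 3.1). Ighv5-12-4 went from -7.57 and -7.86 to -2.81 and -2.54, at least 7.78-fold higher (adjusted p = 0.000161). Igha, the constant segment of IgA, the antibody class secreted onto mucosal surfaces, read 1.95 and 3.61 at 10 weeks and 7.48 and 7.62 at 50 weeks (4.77 ± 0.633, 27.2-fold, adjusted p = 0.0285). Ighg2b, an IgG constant segment, read -4.98 and -5.36 at 10 weeks and -0.17 and -0.29 at 50 weeks (4.94 ± 0.533, adjusted p = 0.0143). The IgG segments Ighg1 and Ighg2c had differences of 4.56 and 5.07 with no overlap of the ages but did not pass (adjusted p = 0.0906 and 0.142). Both older mice lay above both younger mice in 19.7% of all genes. Ighm, the IgM constant segment, had 2 transcript entries that disagreed: one rose from -1.73 and -1.72 to 0.75 and 0.15 (2.17 ± 0.274, adjusted p = 0.024) and the other differed by -0.31 (adjusted p = 0.532). Ighg3 also had 2 entries, one that rose (at least 2.84-fold, adjusted p = 0.0184) and one at 0.75 (adjusted p = 0.38). Ighd, the IgD segment of resting B cells, differed by -0.74 and did not pass (adjusted p = 0.581). Lambda light chains rose too, with Iglc1 at 5.51 ± 0.547, Iglc3 at 3.86 ± 0.291 and Iglv1 at 5.27 ± 0.712 (adjusted p = 0.0106, 0.00396 and 0.0301). Another Iglv1 entry rose by 5.22 ± 0.405 (adjusted p = 0.00402). The probes of both entries matched at 98.2% of 55 bases, and both count among the 107 segments that rose. Below, Iglv1 stands for the entry at 5.27. The 50-week arrays decided many of these calls: Igkc and Iglc1 lost theirs when either of them was left out, and Igkv12-44 and Iglc3 not without replicate 12. Igha lost its call without 10-week replicate 1, either older SAMR1 array or either older SAMP1 array. Ighg2b, the Ighm entry and Iglv1 lost theirs without any 1 SAMR1 array, and the Ighg3 entry without 10-week replicate 1 or 4 or 50-week replicate 6. The Ighm entry and Iglv1 also lost theirs without some of the SAMP1 arrays. With the slide row as a block Igha, Iglv1 and the Ighm and Ighg3 entries did not pass (adjusted p = 0.0586 to 0.0862). Igkv10-94 and Ighv5-12-4 passed whichever array was left out and with the haemoglobin covariate (adjusted p = 0.0238 and 0.028).

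Several single genes linked to antibodies or to the cells that make them rose as well. Jchain, which links IgA and IgM units into polymers, read -2.22 and -0.57 at 10 weeks and 3.69 on both arrays at 50 weeks (5.09 ± 0.647, 34-fold, adjusted p = 0.025). Pou2af1, a B cell transcriptional coactivator, rose by 2.20 ± 0.245, and Irf4, a transcription factor of plasma cells, by 1.53 ± 0.155 (adjusted p = 0.016 and 0.0116). Bhlha15, a transcription factor of secretory cells, rose by 1.25 ± 0.115, and Ccr10, a homing receptor of IgA plasma cells, was at least 2.15-fold higher (adjusted p = 0.00827 and 0.00864). Ccr10 differed by 1.15 in SAMR1 and by -0.003 in SAMP1, a strain difference that was not passed (adjusted p = 0.262). Fcamr, a receptor for IgA and IgM, rose by 1.68 ± 0.153 from -2.10 and -2.30 to -0.46 and -0.58 (adjusted p = 0.00805). Mzb1, a chaperone of antibody assembly, had a difference of 1.45 and did not pass (adjusted p = 0.057). Irf4, Bhlha15, Ccr10 and Fcamr were picked out after their values were seen. Irf4 and Pou2af1 did not pass when any 1 SAMR1 array was left out, and Jchain and Bhlha15 lost the call without 10-week replicate 1 or either 50-week array. Jchain also lost it with the slide row as a block (adjusted p = 0.072). Fcamr lost it without 10-week replicate 4 or either 50-week array, and Ccr10 without 10-week replicate 4 or 50-week replicate 6.

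Surface markers of the B cell lineage before the plasma cell stage gave other values. Ms4a1 differed by -0.23 (adjusted p = 0.814), and Cd79b, a signalling chain of the B cell receptor, by 0.79 (adjusted p = 0.198). In the list of 16 B and plasma cell markers 12 were tested, 4 rose (Jchain, Pou2af1 and the antibody genes Iglv1 and Igh-VJ558) and 8 did not pass. Their median was 0.89, and 0.905% of all genes rose. Of 101 T cell receptor segments 16 were tested and 0 rose or fell by limma's adjusted p, with 2 at an unadjusted p under 0.05 and a median difference of 0.14. Of 9 measured T cell markers, none passed either, with 1 at an unadjusted p under 0.05, and their median was 0.005. Over all genes 12.7% had an unadjusted p under 0.05. In these pieces, more cells of a type and more RNA per cell cannot be told apart.

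**Figure D2:**
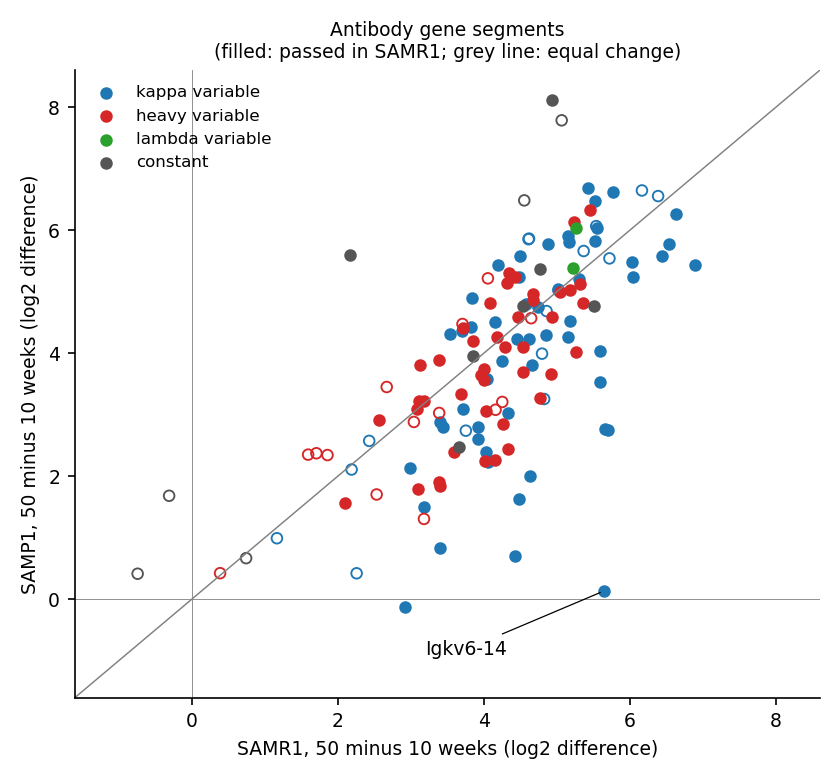
Difference between 50 and 10 weeks in SAMR1 (x axis) and in SAMP1 (y axis), both log2, for the 141 tested antibody segments coloured by chain; filled points passed in SAMR1 and the grey line marks equal change. Nearly all points lie above 0 on both axes, and Igkv6-14 lies at 5.65 in SAMR1 and 0.14 in SAMP1.

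The SAMP1 mice were other animals, but they gave no independent test of the SAMR1 calls. The fit used the same spread per gene for both strains. A call in SAMR1 thus already favoured genes with a small spread in SAMP1, and the counts passing there depend on that choice. The ages of both strains also lay in the same slide columns, so a sign shared by the strains does not separate age from slide column. In SAMP1 238 of the 22091 genes passed for age (1.08%), with 204 higher (0.923%) and 34 lower (0.154%). Of the 107 antibody segments that rose in SAMR1, 106 had a positive difference in SAMP1 and 88 passed there. Among the 93 other rises 87 kept the sign and 43 passed, and among the 42 falls 39 kept the sign and 9 passed. Over all genes tested 59.0% had the same sign in both strains. Haemoglobin ran the other way in SAMP1, as given above. A test of whether the age difference itself differed between strains was passed by 1 gene of 22091 (0.00453%), Igkv6-14, while 1423 had an unadjusted p under 0.05.

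Igkv6-14 is a kappa variable segment whose probe lies at chr6:70384946-70385004 in the mm9 coordinates of the files, and the segment name comes from the gene description there. It read -8.0 and -7.82 in the younger SAMR1 mice and -2.29 and -2.23 in the older ones, at least 10.4-fold higher (adjusted p = 1.37e-05). It read -7.85, -7.92, -7.74 and -7.76 on the 4 SAMP1 arrays and was well above background on none of them. In the older mice it was at least 9.3-fold higher in SAMR1 than in SAMP1, and the test of the strain difference in the age change gave adjusted p = 0.000145. The size of that difference has a bound only, since 3 of the 4 groups lay below background. The call in SAMR1 held under all 19 alternatives that could be fitted to it, including the haemoglobin covariate (adjusted p = 0.0193). The other Igkv6 segments that were tested were compared by the probe that stood for each, and the 3 most alike in sequence are shown. Shared bases decide which messages a probe can bind. Segments that were not tested, and further probes of a segment, were not compared. Each is written 5′ to 3′, and capitals mark bases that differ from the Igkv6-14 probe at the best ungapped offset, with bases beyond the overlap left in lower case.
Igkv6-14: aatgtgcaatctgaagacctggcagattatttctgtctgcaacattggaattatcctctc
Igkv6-13: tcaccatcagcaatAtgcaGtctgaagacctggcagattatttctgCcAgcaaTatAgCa
Igkv6-15: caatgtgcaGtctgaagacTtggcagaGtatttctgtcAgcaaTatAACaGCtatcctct
Igkv6-17: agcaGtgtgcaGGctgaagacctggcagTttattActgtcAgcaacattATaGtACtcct

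Igkv6-13 shared 85.7% of 49 overlapping bases with Igkv6-14, Igkv6-15 shared 83.1% of 59 and Igkv6-17 shared 80.7% of 57. Igkv6-13 went from -6.18 and -5.97 to -0.26 and -0.56 in SAMR1, at least 37.4-fold higher, and rose by 2.78 in SAMP1. Igkv6-17 rose by 5.52 in SAMR1 and by 6.47 in SAMP1, but not in SAMR1 without any 1 of its arrays. Igkv6-15 differed by 5.72 in SAMR1 without passing, since its younger mice read -4.15 and -7.34, and by 5.54 in SAMP1. Relatives with 7 to 11 mismatched bases in the overlap were well above background in 1 or both of the older SAMP1 mice, and the Igkv6-14 probe in neither. Over all tested segments the closest other probe of the same chain matched at a median of 78.5% of bases for kappa and 88.9% for heavy variable segments. At least 90% of bases matched in 17 of 70 kappa and 25 of 57 heavy probes, so neighbouring segments can share signal and their count is not a count of independent genes. Strain variants under the probes were not analysed here.

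A minority of antigen presentation genes rose at 50 weeks. MHC class II molecules carry peptides to CD4 T cells. Of 8 measured class II genes 3 rose, 0 fell and 5 did not pass, with a median difference of 0.81, where 0.905% of all genes rose. For all 8 both older mice lay above both younger mice, which held for 19.7% of all genes. H2-DMa, a subunit of the peptide-exchange factor, read -2.57 and -3.04 at 10 weeks and -1.70 and -1.62 at 50 weeks (1.15 ± 0.168, adjusted p = 0.0396). H2-DMb1, its partner, read -0.27 and -0.20 at 10 weeks and 0.56 and 0.74 at 50 weeks (0.88 ± 0.138, adjusted p = 0.0487). Cd74, the invariant chain that guards the peptide groove, read 2.78 and 2.79 at 10 weeks and 3.63 and 3.59 at 50 weeks (0.83 ± 0.116, adjusted p = 0.0347). H2-Ab1, an antigen-presenting chain, had a difference of 1.02 and Ciita, the regulator of the class II genes, one of 0.79, and neither passed (adjusted p = 0.0685 and 0.202). In SAMP1 the 8 differences were all positive, with a median of 0.73.

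Among 11 class I genes, which display peptides from inside the cell, H2-D1 rose from 2.23 and 2.17 to 3.02 and 2.91 (0.77 ± 0.115, adjusted p = 0.0444) and the other 10 did not pass, with a median of 0.30 for the list. The related genes H2-K2, H2-Q1, H2-Q2, H2-Q7 and H2-T-ps, picked out after their values were seen, rose by 0.72, 1.72, 0.59, 0.77 and 0.54. H2-K2, H2-Q2, H2-Q7 and H2-T-ps lost the call without any 1 SAMR1 array, and H2-Q1 without either older one. Class I genes are near copies of one another, and how far their probes share signal was not tested. Interferon response genes gave a median of -0.05 and 0 of 20 passed by limma's adjusted p, with 1 at an unadjusted p under 0.05, where 12.7% of all genes lay. Markers of macrophages and dendritic cells, which carry class II, gave a median of 0.081, and 0 of 18 passed, with 4 at an unadjusted p under 0.05. Their median level was -0.83 and -0.91 at 10 weeks and -0.74 and -0.65 at 50 weeks. With the slide row as a block H2-D1 alone of the class I and II genes named as rising still passed (the others had adjusted p = 0.0537 to 0.108). None of H2-DMa, H2-DMb1, Cd74 and H2-D1 kept its call with the SAMR1 arrays alone (adjusted p = 0.0731 to 0.122). Without either 50-week array none of the 4 passed, nor with the haemoglobin covariate, and only H2-DMa passed without 10-week replicate 1 and none without replicate 4.

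Complement genes split into rises and falls. Complement is a cascade of plasma proteases that tags targets for clearance, and 21 of 26 listed genes were measured. Of these 4 rose, 2 fell and 15 did not pass, with a median of 0.16. Over all genes tested 0.905% rose and 0.19% fell. Masp2, the protease of the lectin pathway, read -2.49 and -2.61 at 10 weeks and -0.01 and -0.25 at 50 weeks (2.42 ± 0.115, 5.35-fold, adjusted p = 0.000658), and its 3 probes gave 2.42 to 2.83. C4b, the cascade component cleaved by both C1s and Masp2, rose by 1.30 ± 0.147, from 2.34 and 2.56 to 3.69 and 3.80 (adjusted p = 0.0166). Its near copy C4a rose by 1.31 ± 0.125 (adjusted p = 0.00956), and a shared signal of the pair was not tested. Cfi, the factor that inactivates C4b and C3b, rose by 1.53 ± 0.219 (adjusted p = 0.0372). Masp2 kept its call with any 1 array left out, while C4a, C4b and Cfi lost theirs without any 1 of the 4 SAMR1 arrays. C4b and Cfi also lost them with the slide row as a block (adjusted p = 0.0515 and 0.0924). With the haemoglobin covariate Masp2 had adjusted p = 0.0941 and the other 3 from 0.276 to 0.726.

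C1s1 and C1s2, the paired copies of the C1s protease gene of the classical pathway, had the largest falls among the genes that passed. C1s1 read 0.58 and -0.26 at 10 weeks and -5.87 and -6.55 at 50 weeks, at least 48.2-fold lower (adjusted p = 0.00127). C1s2 read 0.47 and -0.07 at 10 weeks and -5.99 and -5.44 at 50 weeks, at least 49.3-fold lower (adjusted p = 0.000823). Neither was well above background in the older SAMR1 mice, and the 4 SAMP1 arrays read -0.01 to 0.63 across both genes. The test of a strain difference in the age change gave adjusted p = 0.0615 and 0.0598, so it was not passed. Both passed whichever array was left out, and with the haemoglobin covariate they had adjusted p = 0.0685 and 0.107. C1ra, the neighbouring C1r protease gene, had a difference of -1.15 and did not pass (adjusted p = 0.0715). The probes, at chr6:124480775-124480834 and chr6:124574742-124574801 in mm9, are printed below. Their sequences matched each other at no more than 38.7% of bases in any ungapped overlap of 30 or more. Neither was compared with the transcript of the other gene, so whether each reads only its own gene was not tested. Variants under these probes or in the genes were not analysed.
C1s1: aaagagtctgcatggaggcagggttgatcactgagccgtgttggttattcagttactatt
C1s2: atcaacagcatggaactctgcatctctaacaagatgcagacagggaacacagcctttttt

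**Figure D3:**
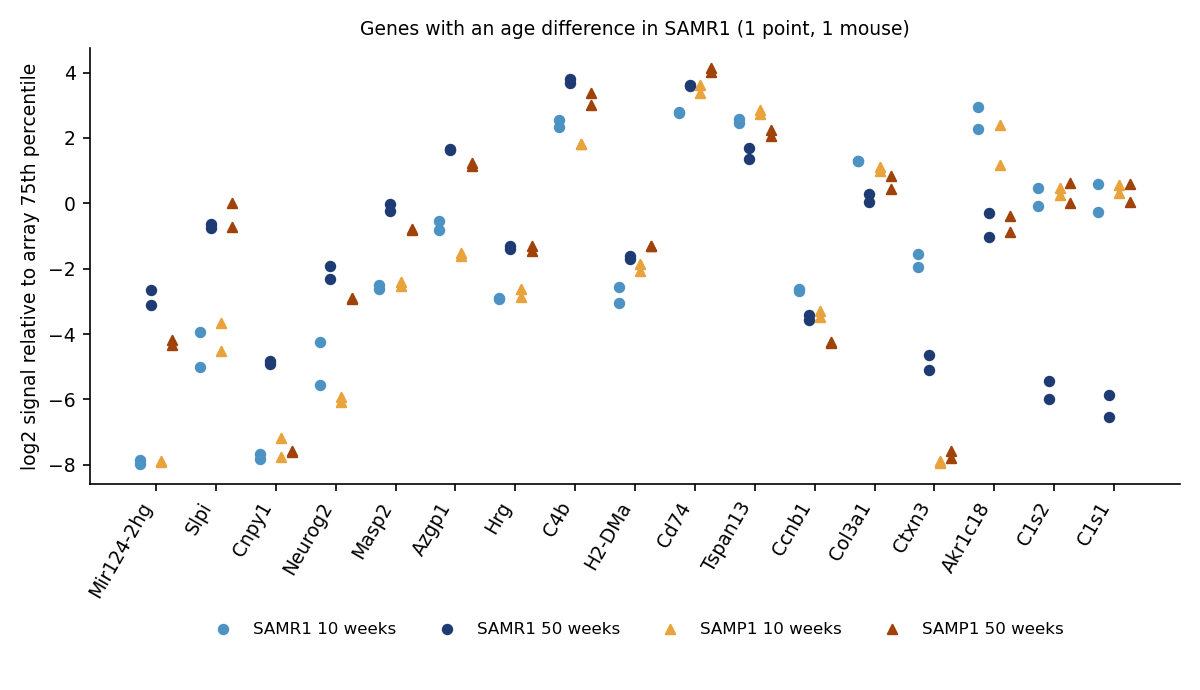
Level of 17 genes that passed for age in SAMR1 on all 8 arrays (y axis, log2 of signal over the 75th percentile); circles are SAMR1, triangles SAMP1, light symbols 10 weeks and dark symbols 50 weeks, 1 point per mouse. C1s1 and C1s2 lie near -6 only in the SAMR1 mice aged 50 weeks, while Azgp1, Masp2 and Slpi were higher at 50 weeks in both strains.

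Other rises came from unlike genes. Mir124-2hg, the host transcript of a microRNA-124 gene, read -7.99 and -7.84 at 10 weeks and -3.12 and -2.66 at 50 weeks, at least 6.69-fold higher (adjusted p = 0.000184). It was the one gene with a symbol outside the antibody segments to pass with the haemoglobin covariate (adjusted p = 0.0325). Azgp1, a secreted zinc-binding glycoprotein, read -0.83 and -0.54 at 10 weeks and 1.65 and 1.63 at 50 weeks (2.32 ± 0.118, 5.00-fold, adjusted p = 0.000823). Hrg, a plasma glycoprotein made mostly in liver, rose by 1.57 ± 0.116, from -2.91 and -2.93 to -1.39 and -1.30 (adjusted p = 0.00368). Trim52, a ubiquitin ligase gene, rose by 1.41 ± 0.114 (adjusted p = 0.00469), and Cd163l1, a scavenger receptor of the CD163 family, was at least 2.36-fold higher (adjusted p = 0.00493). These 5 passed with any 1 of the 8 arrays left out.

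Slpi, an inhibitor of leukocyte proteases, read -5.00 and -3.94 at 10 weeks and -0.75 and -0.63 at 50 weeks (3.78 ± 0.438, adjusted p = 0.0181), but its other probe gave 0.10. Neurog2, a neuronal transcription factor gene, rose by 2.79 ± 0.393 (adjusted p = 0.0349). Cnpy1 was at least 1.70-fold higher and differed by 2.89 in SAMR1 against -0.12 in SAMP1, a strain difference that was not passed (adjusted p = 0.0631). Sult2a2, a sulfotransferase of steroids, rose by 2.29 ± 0.301, and Adgra1, an adhesion receptor, was at least 1.84-fold higher (adjusted p = 0.0279 and 0.019). Pcdhac2, a protocadherin of neurons, was at least 2.69-fold higher, and Ptprn2, a receptor-type phosphatase of secretory granules, rose by 2.01 ± 0.266, with 0.49 by its other probe (adjusted p = 0.011 and 0.0285). Cnpy1 passed whichever array was left out but not with normexp background correction. Of the other 6, none passed without 50-week replicate 12, only Ptprn2 without replicate 6, and only Neurog2 without 10-week replicate 1. Without 10-week replicate 4, Sult2a2 and Ptprn2 lost the call, and with the slide row as a block Neurog2 and Ptprn2 did (adjusted p = 0.0611 and 0.0775).

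Falls were fewer than rises, and apart from C1s1 and C1s2 none that passed exceeded 3.29 on the log2 scale. Akr1c18, a hydroxysteroid dehydrogenase that inactivates progesterone, read 2.28 and 2.95 at 10 weeks and -1.05 and -0.31 at 50 weeks (-3.29 ± 0.471, 9.77-fold lower, adjusted p = 0.037), and its SAMP1 difference was -2.42. Ctxn3, a small membrane protein gene of kidney and brain, read -1.94 and -1.55 at 10 weeks and -5.11 and -4.65 at 50 weeks (-3.14 ± 0.194, adjusted p = 0.00183), while SAMP1 lay between -7.96 and -7.59 at both ages. Serpina6, which encodes corticosteroid-binding globulin, and Fbxo15, an F-box gene, were at least 1.16-fold and 1.17-fold lower and not well above background at 50 weeks (adjusted p = 0.0155 and 0.0117), and with normexp background correction the Fbxo15 difference was 0.017. Syt13, Ankrd35, Arxes2, Gpc6, Tspan13 and Fbxo2 fell by 1.41, 1.26, 1.14, 1.06, 1.01 and 1.00 on the log2 scale. Ctxn3 passed whichever array was left out. The other 9 falls of this paragraph lost the call without either 50-week array or without 10-week replicate 1, and all but Arxes2 without replicate 4. Syt13, Arxes2, Gpc6, Tspan13 and Fbxo2 also lost it with the slide row as a block (adjusted p = 0.0679 to 0.0932).

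Few cell division genes passed. Of 24 measured genes of the list 2 fell, 0 rose and 22 did not pass, where 0.19% of all genes fell. The list's median was -0.59 beside a median of -0.016 over all genes. Both older mice lay below both younger mice in 21 of the 24, against 22.9% of all genes. Ccnb1, the cyclin that drives entry into mitosis, read -2.68 and -2.63 at 10 weeks and -3.57 and -3.42 at 50 weeks (-0.84 ± 0.101, adjusted p = 0.0196). Cenpf, a kinetochore protein of dividing cells, read -2.89 and -2.90 at 10 weeks and -3.97 and -3.75 at 50 weeks (-0.96 ± 0.147, adjusted p = 0.045). Nek2, a mitotic kinase outside the list and picked out after its value was seen, read -4.30 and -4.17 at 10 weeks and -5.20 and -5.26 at 50 weeks, at least 1.99-fold lower (adjusted p = 0.0215), though with normexp background correction the difference was 0.007. Mki67 and Top2a, commonly used as marks of proliferation, had differences of -0.60 and -0.61 and did not pass (adjusted p = 0.297 and 0.424). In SAMP1 the list's median was -0.50. With the slide row as a block Ccnb1 and Cenpf did not pass (adjusted p = 0.0586 and 0.107). Ccnb1, Cenpf and Nek2 lost the call without any 1 of the 4 SAMR1 arrays.

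Many cell cycle promoters carry CCAAT boxes, which bind the factor NF-Y, and TTTGAA elements. In the 250 bases before the start site (RefSeq, GRCm38.p6), CCAAT on either strand was found in 16 of 19 listed cell cycle genes with a promoter in the table and in 34.5% of 27025 promoters. The CCAAT share was 41.7% among promoters of genes that fell and 42.2% among those of genes that rose. TTTGAA on either strand was found in 7 of the 19 and in 16.3% of all promoters. The upstream stretches of the 2 genes that fell are shown 5′ to 3′ on the minus strand with CCAAT or its reverse complement in capitals, Ccnb1 at chr13:100786487-100786736 and Cenpf at chr1:189688087-189688336. Each holds CCAAT at 2 positions, and TTTGAA was in neither window. A match is a description of letters only.
Ccnb1: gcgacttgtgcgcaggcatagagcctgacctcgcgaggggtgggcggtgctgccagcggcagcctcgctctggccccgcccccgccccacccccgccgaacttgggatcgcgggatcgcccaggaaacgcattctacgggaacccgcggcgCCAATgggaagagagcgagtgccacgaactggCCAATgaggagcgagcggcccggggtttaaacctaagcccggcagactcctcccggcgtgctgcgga
Cenpf: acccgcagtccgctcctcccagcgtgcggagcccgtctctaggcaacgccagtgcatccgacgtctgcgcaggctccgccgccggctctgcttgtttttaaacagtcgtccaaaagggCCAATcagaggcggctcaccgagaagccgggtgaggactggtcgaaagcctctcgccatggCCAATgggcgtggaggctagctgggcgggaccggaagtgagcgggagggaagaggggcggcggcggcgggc

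Among extracellular matrix genes, too, few passed. Of 30 measured genes 1 fell, 0 rose and 29 did not pass, with a median of -0.43, where 0.19% of all genes fell. In 22 of the 30 both older mice lay below both younger mice, which held for 22.9% of all genes. Col3a1, a fibrillar collagen of interstitial tissue, read 1.29 and 1.30 at 10 weeks and 0.05 and 0.29 at 50 weeks (-1.12 ± 0.159, adjusted p = 0.0351), though its 3 probes ran from -1.12 to 0.06 and the call was lost without any 1 SAMR1 array and with the slide row as a block (adjusted p = 0.0923). Col1a1 and Col1a2, the chains of type I collagen, had differences of -0.87 and -0.78 and did not pass (adjusted p = 0.304 and 0.161). Within slide row 1 the list's median was -0.71 and within row 2 it was -0.22. Markers of stromal and mural cells had a median of -0.028 and 0 of 12 passed by limma's adjusted p. At an unadjusted p under 0.05 there were 3 of them, where 12.7% of all genes lay. Dcn, a matrix proteoglycan on the stromal and mural list, had the smallest adjusted p there (0.0753) at a difference of -0.61.

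Stress genes gave a single call. Of 23 heat shock and unfolded protein response genes 1 rose, 0 fell and 22 did not pass, with a median of 0.33. The share that rose over all genes was 0.905%. The inducible chaperone gene Hspa1a read 2.57 and 2.73 at 10 weeks and 4.06 and 4.36 at 50 weeks (1.57 ± 0.233, adjusted p = 0.042), and its near copy Hspa1b had a difference of 1.38 (adjusted p = 0.116). Heat shock genes are driven by elements of facing GAA repeats. The Hspa1a stretch before its start, at chr17:34972157-34972406 on the minus strand of GRCm38.p6, holds GAANNTTC once and a CCAAT box in reverse complement, both in capitals. GAANNTTC was in 5 of 20 listed promoters, in 4 of 19 of the cell cycle list and in 6.78% of all.
Hspa1a: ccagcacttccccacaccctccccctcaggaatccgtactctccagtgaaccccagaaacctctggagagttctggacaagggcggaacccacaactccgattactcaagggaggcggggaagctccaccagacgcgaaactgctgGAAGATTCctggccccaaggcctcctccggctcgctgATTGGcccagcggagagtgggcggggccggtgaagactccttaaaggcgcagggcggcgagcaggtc

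Hspa1a lost its call without any 1 SAMR1 array and with the slide row as a block (adjusted p = 0.0934), and had a difference of 2.82 in SAMP1. Of 20 immediate early genes, which respond within minutes to a stimulus, 0 passed by limma's adjusted p, with a median of 0.24. At an unadjusted p under 0.05 there were 3 of them, where 12.7% of all genes lay. Fos read -4.46 and -2.82 at 10 weeks and -1.74 and -1.81 at 50 weeks, with a difference of 1.87 (adjusted p = 0.422). Fabp1, a fatty acid carrier of the proximal tubule, had a difference of 0.38 and did not pass (adjusted p = 0.278).

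**Figure D4:**
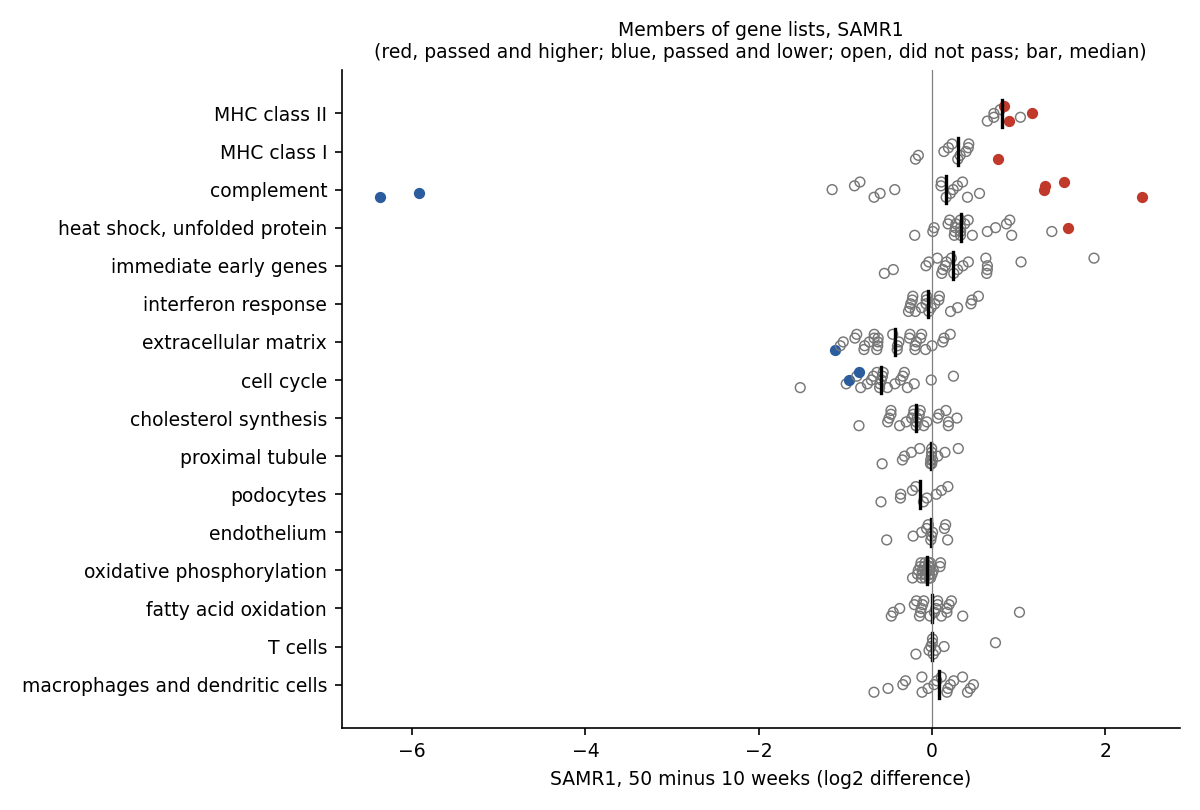
Difference between 50 and 10 weeks in SAMR1 (x axis, log2) for the tested members of 16 gene lists (rows); red members passed and were higher, blue members passed and were lower, open members did not pass, and bars are medians. MHC class II members lie to the right of 0 (median 0.81), most cell cycle and extracellular matrix members to the left (medians -0.59 and -0.43), and tubule and energy lists close to 0.

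Tubule, podocyte and endothelial lists held no passing gene. No member passed in the lists for podocytes (10 genes), proximal tubule (15), straight proximal tubule (8), thick ascending limb (8), distal convoluted tubule (6), principal cells (8), intercalated cells (8) and endothelium (11), with medians from -0.18 to -0.007. At an unadjusted p under 0.05 they held 2, 4, 3, 3, 2, 3, 0 and 1 genes, where 12.7% of all genes lay. Slc22a7, Acsm3 and Cyp7b1 of the straight proximal tubule had differences between -1.06 and -0.93 and did not pass (adjusted p = 0.322, 0.152 and 0.236). Oxidative phosphorylation had a median of -0.058 over 25 genes, fatty acid oxidation 0.003 over 22, and gluconeogenesis and glycolysis -0.002 over 17, with 1, 3 and 2 at an unadjusted p under 0.05 and 0 passing by limma's adjusted p. Umod, the main urinary protein of the thick ascending limb, read 8.22 and 8.21 at 10 weeks and 7.87 and 8.0 at 50 weeks (difference -0.28, adjusted p = 0.383). Egf, a growth factor of the distal nephron, read 6.63 and 6.59 at 10 weeks and 6.05 and 6.22 at 50 weeks (difference -0.48, adjusted p = 0.125).

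Lists for injury and ageing held no passing gene. Among 18 tubular injury genes the median was -0.063, and among 14 senescence genes it was -0.11, with 3 at an unadjusted p under 0.05 in either list. For this and the lists that follow, 12.7% of all genes lay at an unadjusted p under 0.05. Cdkn1a, the cell cycle inhibitor p21, read -1.94 and -1.49 at 10 weeks and -0.97 and -0.94 at 50 weeks (difference 0.76, adjusted p = 0.174). Cxcl13, a chemokine that attracts B cells, read -6.71 and -5.83 at 10 weeks and -3.52 and -3.58 at 50 weeks, at least 4.23-fold higher but not passing (difference 2.71, adjusted p = 0.175). Of 20 chemokine genes 0 passed by limma's adjusted p, with 3 at an unadjusted p under 0.05 and a median of -0.011. Cholesterol synthesis had a median of -0.18 over 23 genes, with 8 at an unadjusted p under 0.05 and 0 passing. Both older mice lay below both younger mice in 13 of the 23 and above them in 3, against 22.9% and 19.7% of all genes. With 2 mice per group, these counts do not show that the genes stayed the same.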

How the data were processed

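Each file was 1 array's scanner output. The intensity of each spot had been read, background-subtracted and processed with Agilent Feature Extraction 12.0.3.1 before it was deposited, per the submitters' processing notes, and the probe coordinates in the files are those of mm9. A deposited value table holds log2 values of the same arrays, which correlated at 0.999 with the scanner values; its array medians ran from -0.0484 to 0.0595, and how the authors made it is not given in the sources used here, so it served as an alternative.

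From the processed intensity, control spots and 102 to 161 outlier spots per array were left out, log2 was taken, each array's 75th percentile was subtracted and spots of a probe were averaged. Probes marked as well above background on both arrays of either SAMR1 age entered the fit (34481 probes), and the probe with the highest mean stood for its gene (22091 genes). Names were matched to RefSeq by accession for 35405 of 56605 probes; the others kept the name in the files.

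limma 3.58.1 in R 4.3.3 (lmFit, eBayes) was fitted to all 8 arrays with 1 coefficient per strain and age, so the SAMP1 arrays add to the estimate of the spread (4 residual and 2.38 prior degrees of freedom). On simulated data for 22091 genes it recovered 61% of 2-fold and 89% of 4-fold changes. With 2 mice per group the number of arrays limits the precision.

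The genes named were, among those that passed and bear a gene symbol, the 15 largest rises, the 15 largest falls and the 10 smallest p-values, list members that passed or else up to 4 with the smallest p, haemoglobin genes and Alas2, and genes with a strain difference in the age change; the text says which others were added. The comparison and the 43 gene lists were chosen with earlier results of these data known. Antibody constant segments and some B cell, MHC and stromal genes were also added for the text after their values were seen. The 20 alternatives changed the background correction, scaling, filter, probe rule, covariates or prior, used the value table or SAMR1 alone, or left out 1 array. Some of these genes are not reported here.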

Additional observations from a re-analysis of the deposited data

Results flagged for a closer look

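The age change of Igkv6-14 differed between the strains by a test of the difference itself (SAMP1 minus SAMR1, fitted as -5.51 on the log2 scale, limma adjusted p = 0.000145). The fitted size rests on readings below background in 3 of the 4 groups; as a bound, the segment was at least 9.3-fold higher in the older SAMR1 mice than in the older SAMP1 mice. It was higher at 50 weeks in 2 of 2 SAMR1 mice and well above background in 0 of 4 SAMP1 mice.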

How the results depend on the processing

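Of 22091 genes, 200 were higher, 42 lower and 242 passed in all. Normexp background correction gave 130 lower and 423 in all, and a trend in limma's prior 118 and 418; the higher share fell from 82.64% to 69.27% with normexp and 71.77% with the trend. Without a filter 96 were higher, 24 lower and 120 passed; with the strict filter, 61, 12 and 73. SAMR1 arrays alone gave 25 lower, and the slide row as a block 22 lower and 156 in all. With the haemoglobin covariate 13 were higher and 0 lower, 13 in all by limma's adjusted p, against 1238 at an unadjusted p under 0.05. Leaving out 1 array gave 54 to 165 higher, 8 to 38 lower and 64 to 203 in all. The strain difference in the age change was passed by 1 gene, and by 23 with normexp, 3 with quantile normalization, 7 with median scaling, 2 with the filter over all 4 groups, 2 with the row block, 12 with the trend and 0 by limma with the strict filter or the haemoglobin covariate (1324 and 842 at an unadjusted p under 0.05). Leaving out 1 array gave 1 to 9 such genes. Fbxo15 and Nek2 changed sign with normexp (0.017 and 0.007). Of 65 passing genes that the naming rule took or that were added, 51 still did with normexp, 25 without a filter, 38 with the row block, 43 with SAMR1 alone, 5 with the haemoglobin covariate, and 16 to 46 with 1 array left out. The cause of these differences was not tested, beyond there being fewer arrays or more genes tested. No paired analysis was possible because the SAMR1 arrays of the 2 ages share no replicate number, and the row block given above pairs them by slide position only. Genes near background in 1 group have bounds only, and 2 mice per group limit what could pass.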
